A study of Rattus norvegicus with 120 samples.

Results

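The rat major histocompatibility complex is called RT1. Every gene whose deposited symbol begins with RT1- was taken as a member, which gave 30 genes of 30560 in the tables, 21 of class I and 9 of class II. They were measured in 120 mRNA libraries of kidney and heart of ZSF1 rats aged 30 weeks, in 12 groups of 10. ZSF1 Obese rats lack working leptin receptors and develop obesity, diabetes and kidney and heart disease, while ZSF1 Lean rats of the same strain do not become obese. In study A the groups of each organ were obese rats on BT2, obese rats on vehicle and lean rats on vehicle. In study B they were obese rats on BT2 together with empagliflozin, here called the combination, obese rats on empagliflozin and obese rats on vehicle. BT2 inhibits BDK, the kinase that switches off branched-chain amino acid breakdown, and empagliflozin inhibits the renal glucose transporter SGLT2. Compounds were given in chow, and neither the dose nor the length of treatment is given in the sources used here. All rats of study B were obese, so the combination was not set against lean rats. The series text speaks of whole heart, whole kidney and kidney cortex, while the labels of the renal libraries say only kidney, and no label says which kidney and heart came from 1 rat.

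MHC class I molecules pair a heavy chain with beta-2 microglobulin (B2m) and show peptides cut by the proteasome and carried by the TAP transporter to CD8 T cells. Class II molecules pair an alpha with a beta chain, travel with the invariant chain Cd74, and show peptides from endosomes to CD4 T cells. Class II is made mainly by dendritic cells, macrophages and B cells, and interferon gamma can raise both classes in other cells, renal tubule cells among them. Class II promoters carry X and Y boxes read by RFX factors and NF-Y, and are raised by the transactivator Ciita. Many class I promoters carry a kappa B site and an interferon response element and are raised by Nlrc5. RT1-Da with RT1-Db1 is the rat counterpart of human HLA-DR, and RT1-Ba with RT1-Bb that of HLA-DQ. RT1-DMa and RT1-DMb encode the exchanger that loads peptides onto class II, and RT1-DOa and RT1-DOb the counterpart of DO, its inhibitor in human and mouse.

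Promoters are shown for 4 class II genes and 2 class I genes on which the results below turn, because they carry the letters of these boxes. RefSeq promoter windows of build GRCr8, 250 bases before to 50 after each gene start, were at hand for 25 of the 29 member symbols (17 of class I and 8 of class II) and not for RT1-CE14, RT1-DMb, RT1-M1-4 and RT1-M2. Capitals mark the searched letters found on either strand.
RT1-Da, chr20:4515165-4515464, forward strand: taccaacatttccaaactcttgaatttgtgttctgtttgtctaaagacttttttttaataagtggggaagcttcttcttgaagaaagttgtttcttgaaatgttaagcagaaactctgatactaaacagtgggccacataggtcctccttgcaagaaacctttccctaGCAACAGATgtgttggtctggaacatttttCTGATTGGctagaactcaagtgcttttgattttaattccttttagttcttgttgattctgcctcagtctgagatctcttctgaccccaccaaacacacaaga
RT1-Db1, chr20:4560113-4560412, reverse strand: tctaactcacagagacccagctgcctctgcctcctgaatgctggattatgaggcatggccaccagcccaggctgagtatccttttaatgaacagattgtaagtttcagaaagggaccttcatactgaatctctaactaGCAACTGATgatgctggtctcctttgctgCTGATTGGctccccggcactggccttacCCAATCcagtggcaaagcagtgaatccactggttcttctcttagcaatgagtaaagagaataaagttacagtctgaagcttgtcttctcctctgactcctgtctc
RT1-Ba, chr20:4576807-4577106, forward strand: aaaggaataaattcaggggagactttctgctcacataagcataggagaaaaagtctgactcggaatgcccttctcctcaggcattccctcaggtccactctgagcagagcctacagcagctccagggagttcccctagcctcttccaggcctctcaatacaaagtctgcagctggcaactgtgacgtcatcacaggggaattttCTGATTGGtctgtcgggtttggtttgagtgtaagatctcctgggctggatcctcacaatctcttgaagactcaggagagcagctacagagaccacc
RT1-DMa, chr20:4712286-4712585, reverse strand: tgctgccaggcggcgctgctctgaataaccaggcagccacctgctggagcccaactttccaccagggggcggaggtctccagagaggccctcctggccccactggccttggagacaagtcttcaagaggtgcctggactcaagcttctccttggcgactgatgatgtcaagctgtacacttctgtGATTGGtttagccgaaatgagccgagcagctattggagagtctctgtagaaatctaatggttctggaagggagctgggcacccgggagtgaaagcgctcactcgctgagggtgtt
RT1-CE16, chr20:3265394-3265693, reverse strand: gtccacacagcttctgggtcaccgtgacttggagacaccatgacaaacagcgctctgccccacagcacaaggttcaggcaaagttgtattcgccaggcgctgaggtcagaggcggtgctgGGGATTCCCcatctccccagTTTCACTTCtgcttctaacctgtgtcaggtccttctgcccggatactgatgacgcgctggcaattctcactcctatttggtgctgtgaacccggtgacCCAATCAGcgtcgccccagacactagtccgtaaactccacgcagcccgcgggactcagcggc
RT1-CE11, chr20:3363149-3363448, reverse strand: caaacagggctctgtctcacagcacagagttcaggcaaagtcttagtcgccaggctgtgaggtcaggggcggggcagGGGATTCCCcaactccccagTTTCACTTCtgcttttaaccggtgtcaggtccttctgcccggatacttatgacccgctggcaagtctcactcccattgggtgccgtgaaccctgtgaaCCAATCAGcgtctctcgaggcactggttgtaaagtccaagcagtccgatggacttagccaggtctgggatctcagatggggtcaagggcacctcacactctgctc

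The Y box letters GATTGG, which overlap the longer CTGATTGG, were present in 8 of 8 class II and 9 of 17 class I promoters, beside 14.8% of all 33469 promoters in the table. CTGATTGG was present in 6 class II and 6 class I promoters, beside 3.50% of all. The X box letters GCAACNGAT were found in RT1-Da, RT1-Db1, RT1-Db2 and RT1-DOb, in no class I promoter and in 0.394% of all promoters. This single string was also missing from the class II promoters of RT1-Ba, RT1-Bb, RT1-DMa and RT1-DOa. Its absence therefore does not show that a promoter of either class lacks an X box. In RT1-Da the X box letters began 82 bases and GATTGG 50 bases before the gene start, and in RT1-Db1 they began 112 and 81 bases before it. In class I, the kappa B letters GGGATTCCC stood in RT1-CE16 and RT1-CE11 and in 0.365% of all promoters. The interferon response letters TTTCACTTC stood in RT1-CE16, RT1-CE11, RT1-CE15 and RT1-T18 and in 0.469% of all. In RT1-CE16 these began 130 and 110 bases, and in RT1-CE11 173 and 153 bases, before the gene start. A match describes these letters in this window and does not show that a factor binds there.

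The kidney libraries held a median depth of 10.1 M counts (M, 1000000), with 22774 in BT2 replicate 2, 776178 in study B vehicle replicate 8 and at least 4.60 M in the others. Those 2 libraries entered the tests and were left out of levels and means, so n is 9 in their groups and 10 in the others. Empagliflozin kidney replicate 1 stood apart with the highest immune cell markers of its group. Heart libraries held 6.74 to 23.6 M counts. The summed markers of renal tubule ran from 6730 to 19500 CPM (counts scaled to 1000000 per library) in kidney and from 279 to 811 CPM in heart. These 8 markers were proximal tubule genes and Umod, a gene of the thick ascending limb. Only 1 of the 8 passed the filter on low counts in the heart comparisons. Summed cardiomyocyte markers ran from 32100 to 54900 CPM in heart and from 8.14 to 20000 CPM in kidney, with a kidney median of 20.9 CPM. The highest kidney value was that of lean vehicle replicate 8, with 365.5 CPM next in its group. In all, 7 libraries of kidney and 11 of heart were held in doubt, and counts are also given without them. They were shallow or lay far above the organ's median, for Actc1 or Alb in kidney and for Myl7 or Myh4 in heart. Kidney was not screened for the muscle gene Myh4. It stood at 832 CPM in study A obese vehicle kidney replicate 4 and 537 CPM in lean replicate 2, neither held in doubt. Replicates 1 to 5 of each group were on plate 1 and 6 to 10 on plate 2, and the plate is a term in every test.

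RT1 genes resemble each other, so reads may be shared among them, and whether lean and obese ZSF1 rats carry the same RT1 alleles was not tested. The files pair no transcript length with these genes, so levels in CPM are compared between groups and not between genes. In kidney, 12 class I genes and all 9 class II genes reached a mean of 5 CPM in at least 1 group, and in heart 11 and 5 did. The filter on low counts passed 13 class I and 9 class II genes in every kidney comparison, and 12 and 7 in every heart comparison. The class I genes RT1-M1-2, RT1-M1-4, RT1-M2, RT1-M5, RT1-M6-2, RT1-T18 and the gene labelled RT1-S2 but described as locus O1 passed in none, with a highest kidney group mean of 0.378 CPM. RT1-T18 was at 0 in 57 of 58 kidney and 60 of 60 heart libraries. Another gene with the symbol RT1-S2, described as locus S2, passed in 4 kidney comparisons, and in heart RT1-DOb passed in none. The symbol and the deposited description disagree for RT1-CE1 (ENSRNOG00000030712), described as class Ia locus A2, and for RT1-CE11 (ENSRNOG00000038999), described as class Ia locus A1, and the symbols are used here.

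Summed class II RT1 levels in kidney, lowest, median and highest, were 546, 658 and 746 CPM with BT2, 602, 704 and 957 CPM in obese vehicle rats of study A and 431, 461 and 606 CPM in lean rats. In study B they were 298, 368 and 507 CPM with the combination, 585, 899.6 and 1741 CPM with empagliflozin and 506, 794 and 1005 CPM with vehicle. Obese vehicle and lean kidneys overlapped only at the ends of their ranges, and so did combination and vehicle kidneys, while combination and empagliflozin kidneys did not overlap. In heart the class II sum was 67.2, 88.4 and 117 CPM with BT2, 72.4, 95.0 and 148 CPM in obese vehicle rats and 50.9, 83.1 and 116 CPM in lean rats. In study B hearts it was 53.8, 86.3 and 131 CPM with the combination, 52.4, 66.7 and 84.7 CPM with empagliflozin and 48.2, 68.6 and 110.1 CPM with vehicle, with all groups overlapping. Class I sums in kidney were 473, 834 and 1041 CPM in obese vehicle rats, against 459.7, 551 and 764 CPM in lean rats, and 489, 811 and 1152 CPM with the combination, against 617, 1142 and 1269 CPM with vehicle. These class I groups overlapped, and in each of the 12 groups the class I median of plate 2 was above that of plate 1. In heart the class I sum was 325, 524 and 794 CPM in obese vehicle rats and 298, 493 and 762 CPM in lean rats, and 249, 413 and 591 CPM with the combination and 280.0, 429.9 and 710.5 CPM with vehicle.

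**Figure D1:**
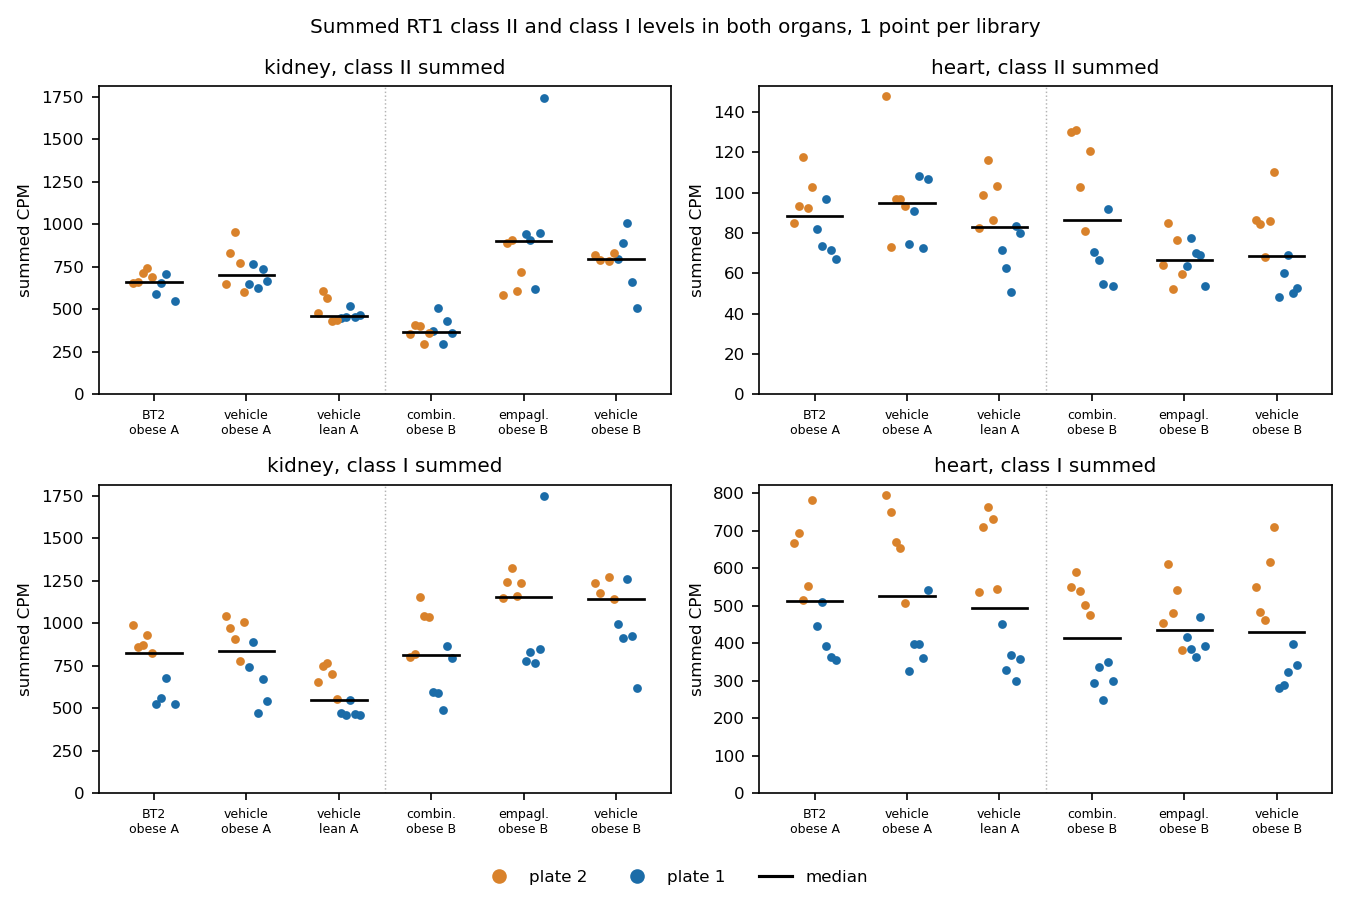
Summed CPM of the class II genes (top) and class I genes (bottom) in kidney (left) and heart (right), 1 point per library, with orange for plate 2, blue for plate 1 and a line at the group median. Kidney class II medians were 704 CPM in obese vehicle and 461 CPM in lean vehicle rats, and 368 CPM with the combination and 794 CPM in study B vehicle rats.

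The first comparison asked what the obese genotype did in kidney. Of the 23 RT1 genes that passed the filter, 21 were higher in obese than in lean vehicle kidneys and 0 were lower (edgeR quasi-likelihood test, Benjamini-Hochberg adjusted p under 0.05 over 14230 genes), beside 32.0% of all genes called and 16.9% called higher. They were 13 of 14 class I and 8 of 9 class II genes. Without the plate term 14 were called, 7 of each class. The median log2 fold change was 0.53 over class I and 0.60 over class II, against -0.02 over all genes tested. In bulk RNA, more cells that make a transcript and more transcript per cell cannot be told apart. Without the libraries in doubt 21 RT1 genes were called, with 12 on plate 1 alone and 6 on plate 2 alone, with 5 libraries against 5. With a term for the repeat run 15 were called, and RT1-CE1, RT1-CE14, the RT1-S2 gene described as locus S2, RT1-T24-1, RT1-T24-4 and RT1-DMb were not.

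Of the HLA-DR-like pair, RT1-Da measured 155, 222 and 276 CPM in obese vehicle kidneys, against 106, 139 and 164 CPM in lean vehicle kidneys (lowest, median and highest, as below). Most obese vehicle kidneys lay above the highest lean kidney, with an overlap at the low end, and the log2 fold change was 0.65 ± 0.10 (SE, adjusted p = 8.16e-05). RT1-Db1 measured 109, 157 and 208 CPM in obese vehicle kidneys, against 74.4, 90.0 and 129.6 CPM in lean vehicle kidneys, and its log2 fold change was 0.69 ± 0.09 (adjusted p = 1.04e-05). Every one of the 10 obese kidneys lay above the lean median for both genes. Of the HLA-DQ-like pair, RT1-Ba measured 106, 132 and 185 CPM in obese vehicle kidneys, against 77.5, 87.5 and 112 CPM in lean vehicle kidneys, a log2 fold change of 0.60 ± 0.09 (adjusted p = 3.8e-05). RT1-Bb measured 87.7, 118 and 167 CPM in obese vehicle kidneys, against 73.5, 79.0 and 106 CPM in lean vehicle kidneys (log2 fold change 0.55 ± 0.10, adjusted p = 0.000224). For both DQ-like genes the groups overlapped and 10 of 10 obese kidneys were above the lean median. RT1-Db2 measured 1.33, 7.01 and 9.45 CPM in obese vehicle kidneys, against 1.03, 3.23 and 7.01 CPM in lean vehicle kidneys (log2 fold change 0.94 ± 0.23, adjusted p = 0.00392), with 8 of 10 obese kidneys above the lean median.

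The class II accessory genes spread more. RT1-DOa measured 2.57, 4.91 and 6.92 CPM in obese vehicle kidneys, against 0.362, 2.00 and 3.34 CPM in lean vehicle kidneys. Its fold change, 2.69 (log2 1.43 ± 0.22, adjusted p = 4.11e-05), exceeded that of its partner RT1-DOb, for which 4.37, 6.90 and 9.89 CPM in obese vehicle kidneys and 2.92, 5.08 and 7.18 CPM in lean vehicle kidneys gave 0.41 ± 0.17 and an adjusted p of 0.0718. The difference between the partners was not tested. RT1-DMa measured 12.6, 21.4 and 30.2 CPM in obese vehicle kidneys, against 12.4, 16.0 and 20.9 CPM in lean vehicle kidneys (log2 fold change 0.42 ± 0.12, adjusted p = 0.0095), with 8 of 10 obese kidneys above the lean median. RT1-DMb measured 51.6, 60.5 and 72.5 CPM in obese vehicle kidneys, against 44.2, 50.4 and 63.9 CPM in lean vehicle kidneys (log2 fold change 0.21 ± 0.07, adjusted p = 0.0269), the smallest change among the class II genes, with overlapping groups and 10 of 10 obese kidneys above the lean median.

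**Figure D2:**
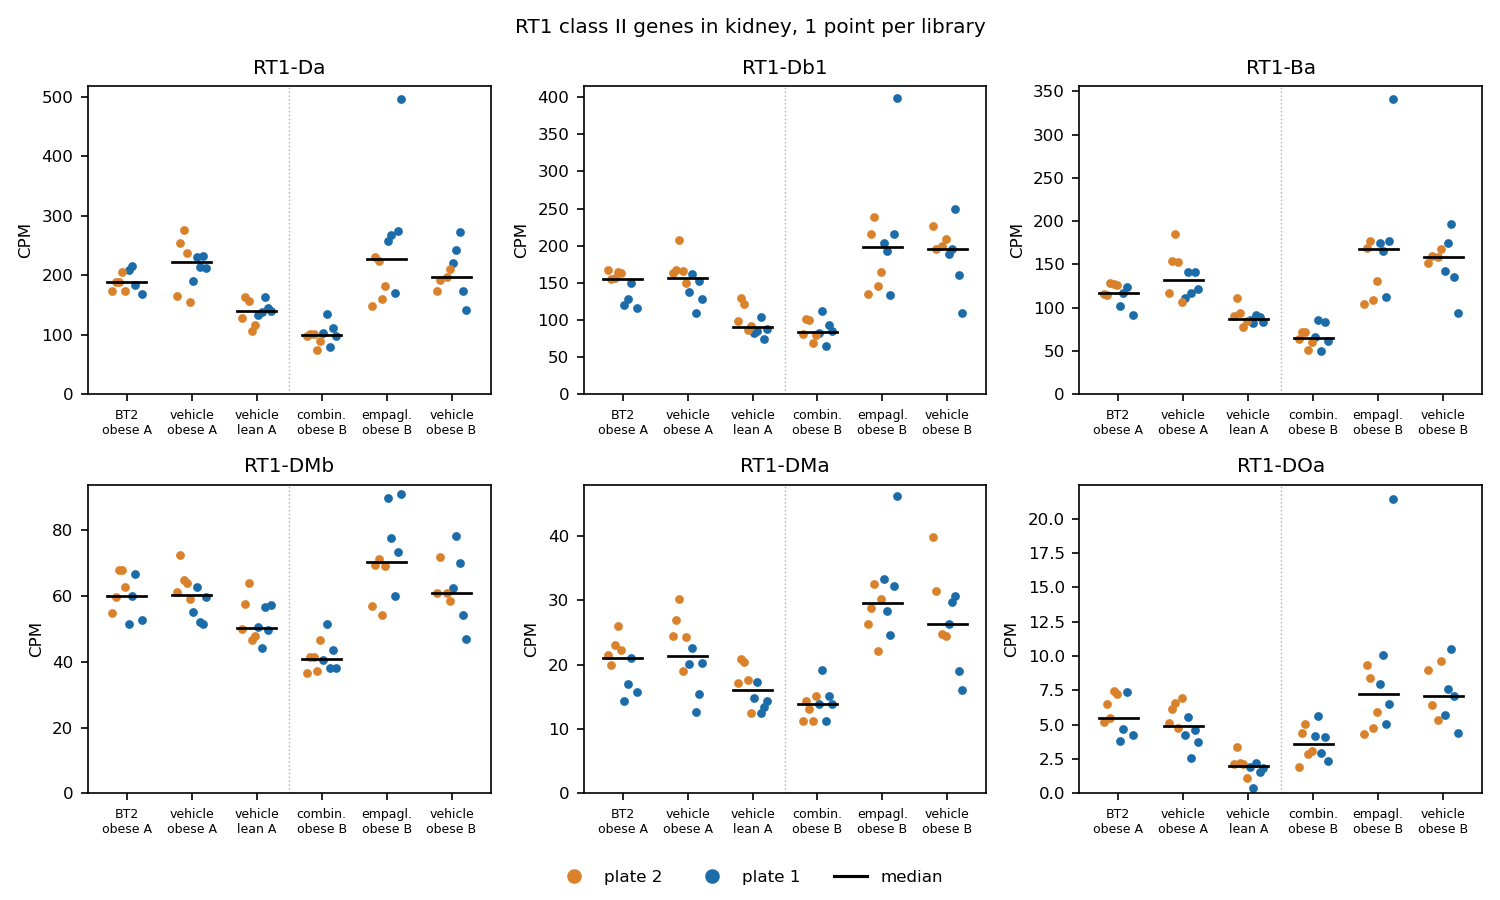
CPM of 6 class II genes in kidney, 1 point per library, with orange for plate 2, blue for plate 1 and a line at the group median. The study A groups stand left of the dotted line and the study B groups right of it. In each of the 6 panels the obese vehicle median of study A lies above the lean median, and the combination median lies below the study B vehicle median.

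Among class I genes, RT1-M3-1, whose mouse counterpart presents formylated peptides, separated the groups: 15.1, 17.7 and 22.4 CPM in obese vehicle kidneys, against 8.09, 11.0 and 14.6 CPM in lean vehicle kidneys. No obese kidney fell into the lean range, and the log2 fold change was 0.75 ± 0.10 (adjusted p = 8.51e-06). RT1-CE16 measured 195, 363 and 469 CPM in obese vehicle kidneys, against 219.5, 239 and 323 CPM in lean vehicle kidneys (log2 fold change 0.44 ± 0.10, adjusted p = 0.0028), with 9 of 10 obese kidneys above the lean median. RT1-CE11 measured 50.0, 92.2 and 119 CPM in obese vehicle kidneys, against 34.9, 47.4 and 93.4 CPM in lean vehicle kidneys (log2 fold change 0.64 ± 0.14, adjusted p = 0.00118). The ranges of both genes overlapped, and RT1-CE11 was above the lean median in 10 of 10 obese kidneys. RT1-S3 measured 61.9, 82.4 and 110.1 CPM in obese vehicle kidneys, against 50.9, 58.0 and 73.1 CPM in lean vehicle kidneys, a class Ib gene with a log2 fold change of 0.44 ± 0.10 (adjusted p = 0.00212). RT1-N3 measured 8.39, 13.8 and 19.2 CPM in obese vehicle kidneys, against 6.40, 9.38 and 10.5 CPM in lean vehicle kidneys, a change of 0.62 ± 0.12 (adjusted p = 0.000641). All 10 obese kidneys for RT1-S3, and 9 of 10 for RT1-N3, were above the lean median.

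The other class I genes called higher in obese kidneys are given by medians. RT1-CE2 had a median of 21.5 CPM in obese vehicle kidneys and 11.4 CPM in lean vehicle kidneys (log2 fold change 0.77). RT1-CE14 had a median of 24.2 CPM in obese vehicle kidneys and 12.2 CPM in lean vehicle kidneys (log2 fold change 0.69). RT1-CE15 had a median of 8.60 CPM in obese vehicle kidneys and 5.05 CPM in lean vehicle kidneys (log2 fold change 0.64). The kidney levels of all genes named in this paragraph also differed by plate, as described further on. RT1-CE1 had a median of 49.8 CPM in obese vehicle kidneys and 32.2 CPM in lean vehicle kidneys (log2 fold change 0.44). RT1-N2 had a median of 12.4 CPM in obese vehicle kidneys and 9.03 CPM in lean vehicle kidneys (log2 fold change 0.42). RT1-T24-1 had a median of 75.8 CPM in obese vehicle kidneys and 51.0 CPM in lean vehicle kidneys (log2 fold change 0.44). RT1-T24-4 had a median of 62.1 CPM in obese vehicle kidneys and 51.5 CPM in lean vehicle kidneys (log2 fold change 0.27). The RT1-S2 gene described as locus S2 was sparse, with medians of 1.64 CPM in obese vehicle kidneys and 0.338 CPM in lean vehicle kidneys, and a log2 fold change of 1.31 ± 0.45 (adjusted p = 0.0324). RT1-M10-1 was not called (0.05 ± 0.24, adjusted p = 0.902).

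**Figure D3:**
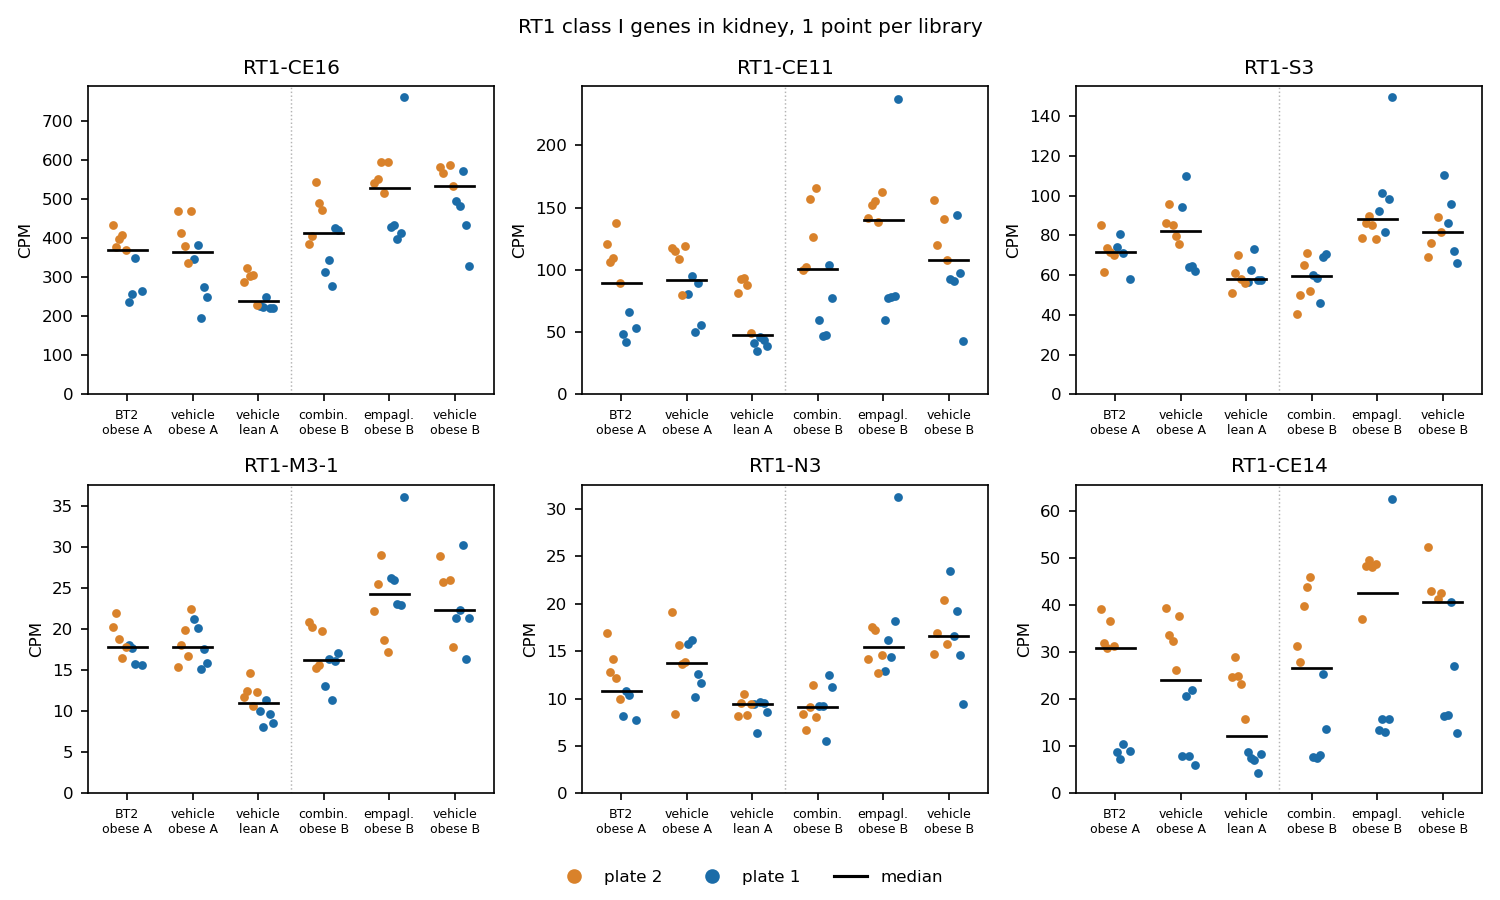
CPM of 6 class I genes in kidney, 1 point per library, with orange for plate 2, blue for plate 1 and a line at the group median. RT1-M3-1 separates obese from lean vehicle kidneys with no overlap, while the RT1-CE14 points fall into a higher plate 2 set and a lower plate 1 set in most groups.

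Part of the genes that serve the RT1 molecules was higher as well. Of 20 genes of class I peptide processing and control, 13 were higher in obese kidneys and 0 lower, beside 16.9% of all genes called higher, with a median log2 fold change of 0.45 against -0.02 over all genes. Those with the smallest adjusted p were the immunoproteasome subunits Psmb8 (1.06 ± 0.14) and Psmb9 (0.70 ± 0.12), the transcription factor Irf1 (0.88 ± 0.12) and the peptide transporter subunit Tap1 (0.80 ± 0.13). The class I transactivator Nlrc5 changed by 0.89 ± 0.15 and B2m by 0.25 ± 0.06. Of 20 genes of class II processing and control, 12 were higher and 0 lower, with a median of 0.33. They included the cathepsins Ctss (0.94 ± 0.10), Ctsl (0.48 ± 0.05) and Ctsd (0.68 ± 0.08) and the X box factor Rfx5 (0.41 ± 0.07). Ciita changed by 0.56 ± 0.12 (adjusted p = 0.00144) and Cd74 by 0.33 ± 0.08 (adjusted p = 0.00407). Of 10 tested interferon gamma genes, 6 were higher, led by Irf8 (1.08), Cxcl10 (1.16), the receptor chain Ifngr1 (0.58) and the GTPase Gbp2 (0.79).

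Markers of immune cells moved with the RT1 genes. Of 15 myeloid markers, 13 were higher in obese kidneys, and their sum was 1096, 1179 and 1440.0 CPM in obese vehicle kidneys, against 406, 489.5 and 1006 CPM in lean vehicle kidneys. The 1006 CPM was in lean replicate 8, a library held in doubt, with 549.7 CPM next. Likewise, 5 of 6 tested dendritic cell markers, 4 of 6 tested T and NK cell markers and 2 of 3 tested B and plasma cell markers were higher too. Summed dendritic cell markers were 46.6, 59.0 and 68.9 CPM in obese and 22.8, 27.1 and 42.9 CPM in lean kidneys. For T and NK cells the sums were 13.9, 17.7 and 22.9 CPM in obese and 7.94, 9.84 and 13.7 CPM in lean kidneys, and for B and plasma cells 9.22, 10.5 and 15.7 CPM in obese and 3.38, 5.25 and 12.8 CPM in lean kidneys. None of these markers was at 0 in every library of a kidney group. Of 7 endothelial markers, 5 were lower, with sums of 291, 420.2 and 454 CPM in obese and 469, 511 and 569.9 CPM in lean kidneys, and of 8 renal tubule markers 7 were lower. The part of these cells in the RT1 differences was not tested.

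The next comparison asked what BT2 with empagliflozin did in obese kidneys. Against study B vehicle, 19 of 23 tested RT1 genes were lower and 0 higher, beside 32.1% of 14037 genes called and 14.8% called lower. They were 9 of 9 class II and 10 of 14 class I genes. The median log2 fold change was -1.07 over class II and -0.53 over class I, against 0.01 over all genes. Without the libraries in doubt 15 were called, all 9 class II genes among them, with 11 on plate 1 alone and 15 on plate 2 alone. Of the 21 RT1 genes higher in obese vehicle than in lean kidneys of study A, 18 were lower with the combination in study B, which is 85.7% of the 21 and 94.7% of the 19. Over all 13799 genes tested in both, 1079 did so, 46.0% of the 2348 higher and 52.7% of the 2047 lower genes. These comparisons share no library.

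RT1-Da measured 73.7, 99.8 and 135 CPM in combination kidneys, against 142, 196 and 273 CPM in study B vehicle kidneys. No combination kidney reached the vehicle range, and the log2 fold change was -1.04 ± 0.10 (SE, adjusted p = 1.52e-07), a level 0.486 times that of vehicle. RT1-Db1 measured 64.4, 83.8 and 112 CPM in combination kidneys, against 110.1, 195 and 250.1 CPM in study B vehicle kidneys (log2 fold change -1.17 ± 0.12, adjusted p = 1.32e-07). Only the ends of the RT1-Db1 ranges touched. RT1-Ba measured 50.0, 65.1 and 86.0 CPM in combination kidneys, against 94.5, 159 and 197 CPM in study B vehicle kidneys (log2 fold change -1.21 ± 0.11, adjusted p = 5.34e-08), again with no overlap. RT1-Bb measured 46.3, 58.6 and 90.2 CPM in combination kidneys, against 85.6, 136 and 154 CPM in study B vehicle kidneys (log2 fold change -1.07 ± 0.12, adjusted p = 3.36e-07). RT1-Db2 measured 2.32, 3.19 and 7.44 CPM in combination kidneys, against 3.43, 8.21 and 13.0 CPM in study B vehicle kidneys (log2 fold change -1.12 ± 0.24, adjusted p = 0.000881). For each of these 5 chains, 10 of 10 combination kidneys lay below the vehicle median.

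The class II accessory genes moved the same way. RT1-DMa measured 11.2, 13.9 and 19.1 CPM in combination kidneys, against 16.1, 26.4 and 39.8 CPM in study B vehicle kidneys (log2 fold change -0.97 ± 0.14, adjusted p = 1.02e-05). RT1-DMb measured 36.8, 41.0 and 51.5 CPM in combination kidneys, against 47.0, 61.0 and 78.2 CPM in study B vehicle kidneys (log2 fold change -0.62 ± 0.09, adjusted p = 8.35e-06), the smallest fall among class II genes here too. RT1-DOa measured 1.93, 3.58 and 5.62 CPM in combination kidneys, against 4.39, 7.07 and 10.5 CPM in study B vehicle kidneys (log2 fold change -1.02 ± 0.20, adjusted p = 0.000443). The DO partner RT1-DOb, not called between obese and lean kidneys, was called here: it measured 1.12, 2.24 and 4.18 CPM in combination kidneys, against 2.89, 5.19 and 6.91 CPM in study B vehicle kidneys (log2 fold change -1.16 ± 0.22, adjusted p = 0.000282). The ranges overlapped at their ends for all 4 genes, and 10 of 10 combination kidneys were below the vehicle median for each.

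The class I changes were smaller in the median than those of class II. RT1-CE16 measured 277, 413 and 544 CPM in combination kidneys, against 328, 534 and 586 CPM in study B vehicle kidneys (log2 fold change -0.38 ± 0.10, adjusted p = 0.00496), with 9 of 10 combination kidneys below the vehicle median. RT1-M3-1 measured 11.4, 16.2 and 20.9 CPM in combination kidneys, against 16.4, 22.3 and 30.2 CPM in study B vehicle kidneys (log2 fold change -0.51 ± 0.11, adjusted p = 0.0013). RT1-N3 measured 5.47, 9.14 and 12.5 CPM in combination kidneys, against 9.43, 16.6 and 23.4 CPM in study B vehicle kidneys (log2 fold change -0.88 ± 0.15, adjusted p = 0.000135), the largest fall among the class I genes called. RT1-S3 measured 40.6, 59.5 and 71.2 CPM in combination kidneys, against 65.9, 81.5 and 110.4 CPM in study B vehicle kidneys (log2 fold change -0.49 ± 0.11, adjusted p = 0.00128). For RT1-M3-1, RT1-N3 and RT1-S3 the ranges overlapped and 10 of 10 combination kidneys were below the vehicle median. RT1-N2 had a median of 7.91 CPM with the combination and 13.4 CPM with vehicle (log2 fold change -0.71). RT1-T24-1 had a median of 54.5 CPM with the combination and 90.3 CPM with vehicle (log2 fold change -0.74). These genes also had 10 of 10 combination kidneys below the vehicle median.

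The class I genes called lower also included RT1-CE2 (log2 fold change -0.73, adjusted p = 0.00974), RT1-T24-4 (-0.55, 0.0123), RT1-CE1 (-0.43, 0.0476) and RT1-CE14 (-0.58, 0.0485). Medians of RT1-CE2 were 23.9 CPM with the combination and 45.1 CPM with vehicle. Medians of RT1-T24-4 were 44.6 CPM with the combination and 63.5 CPM with vehicle. Medians of RT1-CE1 were 60.0 CPM with the combination and 82.2 CPM with vehicle. Those of RT1-CE14 were 26.7 CPM with the combination and 40.8 CPM with vehicle. None of these 4 was called without the libraries in doubt. Their CPM on plate 1, and that of RT1-N2, RT1-T24-1 and RT1-Db2, also depended on the run, as described further on. Not called were RT1-CE11 (-0.28), RT1-CE15 (-0.37), RT1-M10-1 (0.14) and the RT1-S2 gene described as locus S2 (-1.09), with adjusted p between 0.108 and 0.693. RT1-CE11 and RT1-CE15 were called higher in obese than in lean kidneys and not called under the combination, and the difference between these changes was not tested.

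Processing genes were lower in part. Of 20 class I processing and control genes 14 were lower with the combination and 0 higher, with a median log2 fold change of -0.43 against 0.01 over all genes. They included the loading chaperones Calr (-0.56 ± 0.05) and Pdia3 (-0.49 ± 0.06), Irf1 (-0.72 ± 0.10) and Psmb8, with medians of 26.6 CPM with the combination and 50.6 CPM with vehicle, and also Nlrc5 (-0.72 ± 0.12) and B2m (-0.45 ± 0.06). Of 19 tested class II processing and control genes 9 were lower and 1, Marchf8, a ligase that takes class II off the surface, was higher (0.14, named after its value was seen). The invariant chain Cd74 changed by -1.06 ± 0.10 (adjusted p = 5.31e-08), close to RT1-Da, and Ciita by -0.88 ± 0.19 (adjusted p = 0.00128). The protease Ctsb (-0.55), the thiol reductase Ifi30 (-0.60) and Ctss (-0.93) were lower too. Of 11 interferon gamma genes 4 were lower, Gbp2 (-0.95), Ifngr1 (-0.45), Irf8 (-0.71) and Cxcl11 (-0.69). Ifng itself was at 0 in every kidney library of the combination and of study B vehicle used for levels.

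Of 14 tested myeloid markers 13 were lower with the combination, and their sum was 412, 532 and 689 CPM in combination kidneys, against 655, 1060.0 and 1411 CPM in study B vehicle kidneys. Likewise 2 of 6 dendritic, 4 of 5 T and NK and 1 of 5 B and plasma cell markers tested were lower. Dendritic marker sums were 21.8, 25.4 and 33.3 CPM with the combination and 31.1, 45.9 and 57.5 CPM with vehicle. The T and NK sums were 9.08, 13.1 and 15.8 CPM with the combination and 13.1, 19.3 and 26.8 CPM with vehicle, and the B and plasma sums 8.32, 13.4 and 34.6 CPM with the combination and 11.7, 17.6 and 24.6 CPM with vehicle. None of these markers was at 0 in every library of either group. Endothelial sums were 223, 305 and 407 CPM with the combination and 222, 300.4 and 394 CPM with vehicle. Of 8 renal tubule markers 4 were lower and 2 higher, and 3 of 6 tested cardiomyocyte markers were higher, with a sum reaching 1175 CPM in combination replicate 7. Their part in the RT1 changes was not tested.

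Set against empagliflozin alone, 15 of 22 tested RT1 genes were lower with the combination and 0 higher, beside 31.7% of all genes called and 14.8% called lower. All 9 class II genes were among them, with log2 fold changes between -1.61 for RT1-DOb and -0.79 for RT1-DMb. RT1-Da measured 73.7, 99.8 and 135 CPM in combination kidneys, against 148, 228 and 497 CPM in empagliflozin kidneys (log2 fold change -1.27 ± 0.16, adjusted p = 3.96e-06). Its ranges did not overlap, nor did those of RT1-Db1, RT1-Ba, RT1-Bb, RT1-DMa, RT1-DMb and RT1-DOb. The 6 class I genes called were RT1-S3 (-0.69 ± 0.11) and RT1-N3 (-0.89 ± 0.16), whose ranges did not overlap either, RT1-N2 (-0.88), RT1-T24-1 (-0.76), RT1-M3-1 (-0.59) and RT1-CE16 (-0.38). Cd74 changed by -1.25 ± 0.13, Ciita by -1.19 ± 0.27 (adjusted p = 0.00205), B2m by -0.49 ± 0.10 and Nlrc5 by -0.88 ± 0.22. Myeloid sums were 412, 532 and 689 CPM in combination kidneys and 739, 1109 and 1827 CPM in empagliflozin kidneys, and 13 of 14 myeloid markers were lower. Leaving out empagliflozin replicate 1, the kidney with the highest class II sum, also gave 15 RT1 genes.

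No RT1 gene passed the test in kidney with either compound alone. With BT2 0 of 23 RT1 genes were called by edgeR, beside 5.67% of all genes, with 4 at an unadjusted p under 0.05 and 2 called by DESeq2. Those 2 were RT1-T24-1 (edgeR -0.38 ± 0.12, adjusted p = 0.0621) and RT1-T24-4 (-0.32 ± 0.10, adjusted p = 0.0614), each lower than the vehicle median in 8 of 9 BT2 kidneys. In repeat runs of plate 1 kidneys these genes gave 1.60 and 1.83 times the CPM of the original run. On plate 1, 2 study A vehicle kidneys had a repeat run, against 1 with BT2, the library of 22774 counts. The part of the runs in this difference was not tested. RT1-Da measured 168, 188 and 216 CPM in BT2 kidneys, against 155, 222 and 276 CPM in study A vehicle kidneys (log2 fold change -0.21 ± 0.13, adjusted p = 0.305). RT1-Ba measured 91.3, 117 and 129 CPM in BT2 kidneys, against 106, 132 and 185 CPM in study A vehicle kidneys (log2 fold change -0.23 ± 0.11, adjusted p = 0.192). Both lay below the vehicle median in 9 of 9 BT2 kidneys, and the ranges overlapped. Class II log2 fold changes ran from -0.35 for RT1-DOb to 0.19 for RT1-DOa. Cd74, Ciita, B2m and Nlrc5 had log2 fold changes of -0.21, 0.06, -0.29 and -0.21, none called. Of the processing lists, Pdia3 (-0.34), Erap1 (-0.30), Ctss (-0.40) and Lgmn (-0.60) were lower with BT2. Immune cell markers were lower in part: 2 of 15 myeloid markers, 1 of 7 tested dendritic and 3 of 6 tested T and NK cell markers (Cd3d, Cd3g and Lck), with 0 of 3 tested B and plasma cell markers called. Summed myeloid markers were 713, 991 and 1024 CPM in BT2 kidneys, against 1096, 1179 and 1440.0 CPM in study A vehicle kidneys. The T and NK sums were 12.1, 13.4 and 17.3 CPM in BT2 kidneys, against 13.9, 17.7 and 22.9 CPM in study A vehicle kidneys. Dendritic sums were 39.1, 45.7 and 61.6 CPM in BT2 kidneys, against 46.6, 59.0 and 68.9 CPM in study A vehicle kidneys. None of these markers was at 0 in every library of either group, and their part in the RT1 values was not tested.

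With empagliflozin alone 0 of 23 RT1 genes were called by edgeR and 0 by DESeq2, beside 1.06% of all genes, with 1 at an unadjusted p under 0.05. RT1-Da measured 148, 228 and 497 CPM in empagliflozin kidneys, against 142, 196 and 273 CPM in study B vehicle kidneys (log2 fold change 0.23 ± 0.16, adjusted p = 0.457). RT1-CE16 measured 398, 527 and 760.3 CPM in empagliflozin kidneys, against 328, 534 and 586 CPM in study B vehicle kidneys (log2 fold change 0.00 ± 0.11). The groups overlapped throughout, apart from replicate 1 of empagliflozin, which held the highest RT1-Da and RT1-CE16 of all kidneys. In that kidney the B and plasma cell markers summed to 576 CPM, beside a group median of 23.9 CPM, and the T and NK markers to 98.1 CPM, beside 21.7 CPM. Log2 fold changes of the class II genes ran from 0.02 for RT1-Db2 to 0.43 for RT1-DOb. Those of Cd74, Ciita, B2m and Nlrc5 were 0.19 ± 0.14, 0.31 ± 0.23, 0.04 ± 0.11 and 0.16 ± 0.23, none called.

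Whether BT2 acted differently with empagliflozin than alone was tested as a difference of effects across the studies, added after the first results were seen. In kidney 9 of 23 RT1 genes had a more negative BT2 effect with empagliflozin, beside 7.57% of all genes called and 2.99% called in that direction. They were RT1-M3-1 and 8 class II genes. The difference was -0.78 ± 0.11 for RT1-DMb (adjusted p = 0.000108), -1.03 ± 0.16 for RT1-DMa (0.00022), -1.14 ± 0.20 for RT1-Db1 (0.000649) and -1.06 ± 0.20 for RT1-Da (0.00166). RT1-Ba, RT1-Bb, RT1-DOa and RT1-DOb gave -1.08, -1.14, -1.36 and -1.25, and RT1-Db2 was not called (-0.89 ± 0.39, adjusted p = 0.153). Study and the presence of empagliflozin cannot be told apart in this difference. In heart 0 of 22 RT1 genes were called by edgeR and 0 by DESeq2, beside 0.00% of all genes, with 5 class II genes at an unadjusted p under 0.05.

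**Figure D4:**
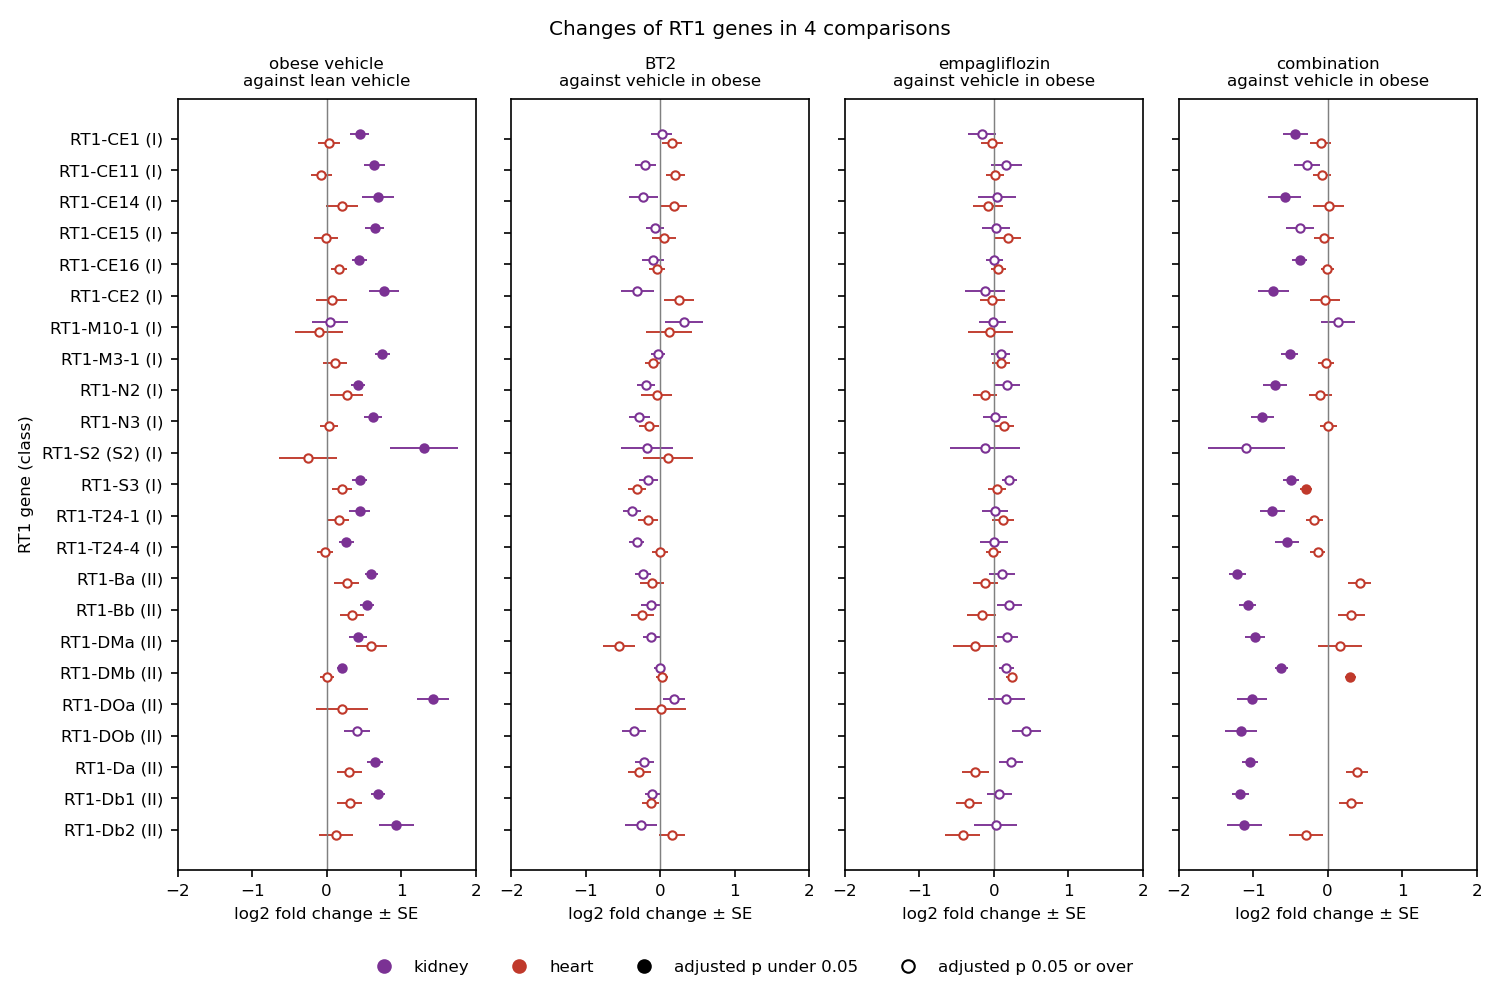
Log2 fold change with SE of each tested RT1 gene in 4 comparisons, with purple for kidney above red for heart, filled where the edgeR adjusted p was under 0.05 and open otherwise. Filled kidney points lie right of 0 for obese against lean vehicle (21 genes) and left of 0 for the combination against vehicle (19 genes), while 2 heart points are filled.

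In heart few RT1 genes passed the test. Between obese and lean vehicle hearts 0 of 22 tested genes were called by edgeR and 0 by DESeq2, beside 5.36% of all genes, with 2 at an unadjusted p under 0.05. RT1-Da measured 11.8, 19.6 and 35.1 CPM in obese vehicle hearts, against 11.7, 17.8 and 26.7 CPM in lean vehicle hearts (log2 fold change 0.30 ± 0.17, adjusted p = 0.361). RT1-CE16 measured 116, 198 and 303 CPM in obese vehicle hearts, against 106, 179.5 and 260.5 CPM in lean vehicle hearts (log2 fold change 0.17 ± 0.10, adjusted p = 0.424). Both pairs of groups overlapped over most of their range. RT1-M3-1, with 6.50, 7.40 and 12.3 CPM in obese vehicle hearts and 4.97, 6.04 and 12.9 CPM in lean vehicle hearts, was above the lean median in 10 of 10 obese hearts and was not called (0.11 ± 0.16, adjusted p = 0.779). RT1-DMa had the largest log2 fold change of the class II genes (0.60 ± 0.21, adjusted p = 0.0996), at medians of 2.42 CPM in obese vehicle hearts and 1.73 CPM in lean vehicle hearts. B2m, Nlrc5, Cd74 and Ciita had log2 fold changes of 0.27, 0.15, 0.04 and 0.10, none called. Of 15 myeloid markers 4 were higher in obese hearts, and Cd209a, a dendritic marker, was at 0 in all heart libraries. Their part was not tested.

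With BT2 alone 0 of 22 RT1 genes were called in heart by edgeR and 0 by DESeq2, beside 0.0558% of all genes, with 2 at an unadjusted p under 0.05. With empagliflozin alone 0 of 20 were called by edgeR and 0 by DESeq2, beside 0.107%, with 1 at an unadjusted p under 0.05. On plate 1 alone 4 class I genes, RT1-CE15, RT1-CE16, RT1-M3-1 and RT1-S3, were called higher with empagliflozin in heart. The share of all genes called on plate 1 alone is not given here, so these 4 stand without a background. Median RT1-CE16 was 191 CPM with BT2 and 198 CPM in study A vehicle hearts, and 149.8 CPM with empagliflozin and 145 CPM in study B vehicle hearts. Median RT1-Da was 17.9 CPM with BT2 and 19.6 CPM in study A vehicle hearts, and 13.7 CPM with empagliflozin and 14.9 CPM in study B vehicle hearts. All of these groups overlapped. With BT2 the log2 fold changes of Ciita, Cd74, B2m and Nlrc5 were 0.03, -0.01, -0.12 and 0.06, none called. With empagliflozin those of Cd74, B2m and Nlrc5 were 0.10, -0.08 and 0.22, none called, and Ciita did not pass the filter on low counts.

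Against vehicle the combination changed 2 of 19 tested RT1 genes in heart, beside 5.13% of all genes. RT1-DMb measured 18.9, 24.1 and 33.4 CPM in combination hearts, against 16.0, 19.8 and 24.1 CPM in study B vehicle hearts (log2 fold change 0.30 ± 0.07, adjusted p = 0.018), higher than the vehicle median in 9 of 10 hearts. RT1-S3 measured 22.9, 33.5 and 40.3 CPM in combination hearts, against 29.9, 37.8 and 60.7 CPM in study B vehicle hearts (log2 fold change -0.29 ± 0.08, adjusted p = 0.042), lower than the vehicle median in 8 of 10 hearts. The ranges overlapped for both, and neither was called without the libraries in doubt, without the plate term, or on plate 1 or plate 2 alone. RT1-Da measured 12.0, 21.0 and 28.8 CPM in combination hearts, against 9.04, 14.9 and 27.0 CPM in study B vehicle hearts (log2 fold change 0.40 ± 0.14, adjusted p = 0.108). Ciita had a log2 fold change of 0.68 ± 0.23 (adjusted p = 0.0878), Cd74 of 0.20 ± 0.07 (adjusted p = 0.0934), B2m of -0.10 and Nlrc5 of 0.11, none called. Of 8 cardiomyocyte markers 4 were higher with the combination, with sums of 38780.0, 44470.0 and 50680.0 CPM in combination hearts and 35430.0, 37100.0 and 44230.0 CPM in vehicle hearts. The skeletal muscle gene Myh4 was higher too. It stood at 1052 CPM in combination replicate 9, a library held in doubt, and at 3.3 to 20.7 CPM in the other combination hearts. Vehicle hearts had 2.3 to 8.6 CPM of Myh4. The part of these markers in the RT1 values was not tested. Against empagliflozin 0 of 19 RT1 genes were called by edgeR and 0 by DESeq2, beside 0.0249% of all genes, with 5 at an unadjusted p under 0.05. The 7 class II genes all had a positive log2 fold change there, with a median of 0.47 and a highest value of 0.63 for RT1-Da (adjusted p = 0.288), and 3 of them were at an unadjusted p under 0.05.

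Apart from RT1-DMb and RT1-S3, no RT1 gene was called in any of the 5 heart comparisons. Medians follow for some of those not called, the class II genes RT1-Ba, RT1-Bb and RT1-Db1 and 3 class I genes. RT1-Ba had medians of 12.5 CPM in BT2, 13.6 CPM in obese vehicle and 11.5 CPM in lean vehicle hearts of study A, and 12.4 CPM in combination, 8.94 CPM in empagliflozin and 9.07 CPM in vehicle hearts of study B. RT1-Bb had medians of 11.6 CPM in BT2, 13.0 CPM in obese vehicle and 10.9 CPM in lean vehicle hearts of study A, and 9.11 CPM in combination, 7.05 CPM in empagliflozin and 7.99 CPM in vehicle hearts of study B. RT1-Db1 had medians of 16.2 CPM in BT2, 18.3 CPM in obese vehicle and 15.1 CPM in lean vehicle hearts of study A, and 15.5 CPM in combination, 9.50 CPM in empagliflozin and 11.4 CPM in vehicle hearts of study B. The groups of each of these class II chains overlapped in every heart comparison. RT1-CE11 had 65.9, 58.4 and 65.9 CPM in BT2, obese vehicle and lean vehicle hearts, and 53.5, 54.1 and 52.5 CPM in combination, empagliflozin and vehicle hearts. RT1-T24-1 had 71.2, 72.9 and 66.9 CPM in BT2, obese vehicle and lean vehicle hearts, and 54.7, 61.9 and 56.7 CPM in combination, empagliflozin and vehicle hearts. RT1-T24-4 had 53.4, 53.5 and 52.3 CPM in BT2, obese vehicle and lean vehicle hearts, and 50.2, 53.2 and 52.0 CPM in combination, empagliflozin and vehicle hearts. These class I genes overlapped between the groups as well, in each heart comparison made.

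Between lean kidney and lean heart, 7 RT1 genes were higher and 11 lower of 22 tested, beside 81.0% of all genes called, 41.1% higher and 39.9% lower. On a joint scale of both organs, RT1-Da had 72.1, 95.3 and 112 CPM in lean kidneys, against 17.3, 25.8 and 42.5 CPM in lean hearts (log2 fold change 1.80 ± 0.14). The ranges did not overlap for RT1-Da, RT1-Db1 (1.56), RT1-Ba (1.78), RT1-Bb (1.78), RT1-DMa (2.14) and RT1-DOb (2.06), all higher in kidney. RT1-DOb, at a highest heart group mean of 0.611 CPM, passed the filter in no comparison within heart and entered this test through the kidney libraries. RT1-DMb had 30.5, 34.3 and 42.9 CPM in lean kidneys, against 24.9, 34.4 and 44.5 CPM in lean hearts (0.02 ± 0.10, not called). Also not called were RT1-DOa, RT1-Db2 and RT1-M10-1. The 11 genes lower in kidney were all of class I, between -1.59 for RT1-T24-1 and -0.58 for RT1-M3-1. RT1-CE16, for one, had 149, 162 and 219.6 CPM in lean kidneys, against 155, 268 and 414 CPM in lean hearts (-0.59 ± 0.11). Among these 11 genes RT1-N3, RT1-CE15 and RT1-T24-4 had ranges that did not overlap. RT1-N2 was the only class I gene called higher in kidney (0.42 ± 0.19, adjusted p = 0.0444). The 18 of 22 RT1 genes called are a share near that of all genes. Of 7 endothelial markers 6 were lower in lean kidney than in lean heart (median log2 fold change -1.88), with sums, on each organ's own scale, of 469, 511 and 569.9 CPM in lean kidneys and 729, 762 and 1053 CPM in lean hearts, and none at 0 in every library. Of 10 tested interferon gamma genes 8 were lower and 2 higher (median -1.08), and of 15 myeloid markers 6 were lower and 4 higher (median -0.20). Their part in the RT1 differences was not tested.

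The difference between the organs' responses was tested as the kidney effect minus the heart effect. For obesity 5 RT1 genes had a larger effect in kidney, beside 14.0% of all genes called and 7.64% in that direction: RT1-DOa (1.22 ± 0.42, adjusted p = 0.0464), RT1-CE11 (0.70 ± 0.21, 0.0211), RT1-CE15 (0.63 ± 0.21, 0.0412), RT1-M3-1 (0.63 ± 0.19, 0.0222) and RT1-N3 (0.58 ± 0.18, 0.0245). RT1-DOa was sparse in heart, with a highest group mean of 0.934 CPM. Without the plate term 0 were called, and without the libraries in doubt 7. For the combination 11 RT1 genes had a more negative effect in kidney, beside 16.2% of all genes called and 8.30% in that direction. They were 8 class II genes, with RT1-Ba at -1.65 ± 0.19 (adjusted p = 1.15e-07), RT1-Db1 at -1.49 ± 0.20 (2.03e-06), RT1-Da at -1.45 ± 0.18 (4.21e-07) and RT1-DMb at -0.94 ± 0.12 (4.19e-07), and the class I genes RT1-N3 (-0.90), RT1-M3-1 (-0.50) and RT1-CE16 (-0.38). The 8 include RT1-DOa and RT1-DOb, which did not pass the filter on low counts for this comparison in heart. Their highest heart group means were 0.934 and 0.611 CPM, and they entered this test through the kidney libraries. Without the plate term 6, and without the libraries in doubt 6, were called. For BT2 0 of 23 were called by edgeR and 0 by DESeq2, beside 0.528% of all genes, with 1 at an unadjusted p under 0.05. For empagliflozin 0 of 23 were called by both tools, beside 1.39%, again with 1 at an unadjusted p under 0.05.

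Several class I genes differed between the plates, in a comparison added after this was seen. Over the 60 libraries of an organ, with the group as a covariate, 10 class I genes were higher and 1 lower on plate 2 than on plate 1 in kidney, of 14 tested, beside 41.7% of all genes called and 20.6% called higher. Of 9 class II genes only RT1-Db2 was called in kidney (1.02 ± 0.16), while RT1-Da, RT1-Ba and RT1-Db1 gave -0.17 ± 0.08, -0.01 ± 0.08 and 0.13 ± 0.08. In heart 13 of 14 class I and 8 of 9 class II genes were higher on plate 2, beside 69.1% of all genes called and 36.9% called higher. RT1-CE14 differed by a log2 of 1.41 ± 0.14 in kidney and 1.41 ± 0.12 in heart, and RT1-CE2 by 1.24 ± 0.14 and 1.28 ± 0.12. RT1-M10-1 was the gene lower on plate 2 in kidney (-0.66 ± 0.14).

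**Figure D5:**
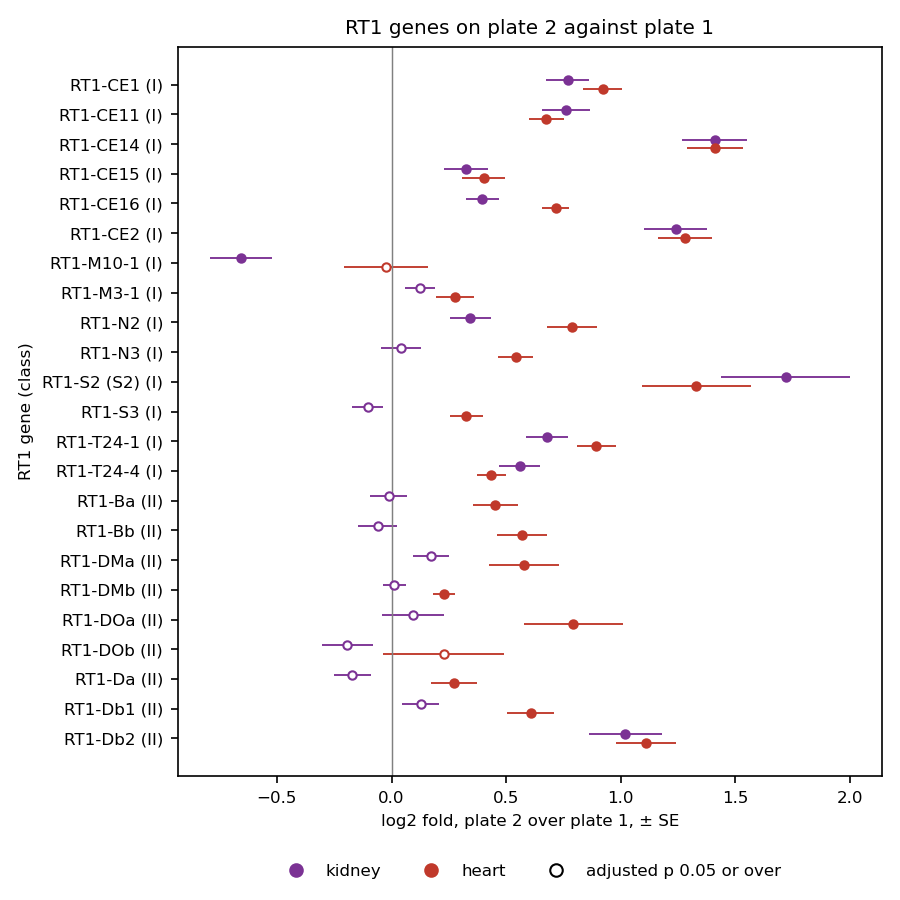
Log2 fold of plate 2 over plate 1 with SE for each RT1 gene, with purple for kidney above red for heart, open where the adjusted p was 0.05 or over. RT1-CE14, RT1-CE2, RT1-Db2 and the RT1-S2 gene described as locus S2 lie above 1 in both organs, while most class II genes in kidney lie near 0.

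Repeat and original runs of 1 library differed in several genes on plate 1. Among plate 1 libraries with both runs, the repeat run gave a median of 3.34 times the RT1-CE14 CPM of the original run in kidney (4 libraries) and 3.84 times in heart (15 libraries). On plate 2 these values were 0.921 in kidney (10 libraries) and 0.901 in heart (7 libraries). RT1-CE2 gave 2.45 times in kidney and 2.39 times in heart on plate 1, RT1-CE1 1.78 and 1.70 times, RT1-CE11 1.77 and 1.57 times and RT1-Db2 2.30 and 1.56 times. The repeat run was higher in 4 of 4 kidney libraries for each, and also for RT1-T24-4 (1.83 times), RT1-T24-1 (1.60 times) and the RT1-S2 gene described as locus S2 (7.24 times, with medians of 2.27 and 0.188 CPM in the repeat and original runs). In heart RT1-N2 gave 1.65 times. RT1-M10-1 was lower in the repeat run on plate 1, at 0.588 times in kidney and 0.363 times in heart. Per the labels both runs belong to 1 sample, so the CPM of these genes depended on the run. RT1-Da gave 0.995 times in kidney and 0.951 times in heart on plate 1, and RT1-M3-1 0.952 and 0.957 times. Plates were balanced over the groups, with 5 libraries of each group on each, but repeat runs were not. Obese vehicle kidneys of study A had 2 libraries with a repeat run on plate 1 and 4 on plate 2, against 0 and 2 in lean vehicle kidneys. Combination kidneys had 1 on plate 1 and 4 on plate 2, against 2 and 0 in study B vehicle kidneys. RT1-N2, too, was higher in the repeat run of plate 1 kidneys, at 1.42 times. The cause of the run differences was not tested.

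The authors' deposited tables, made with their own test, call 22 of 26 RT1 genes higher in obese than in lean kidneys (13 of class I and 9 of class II). Beside them, 34.2% of genes with an adjusted p were called in either direction, and the shares below are of the same kind. For the combination in kidney the authors' deposited table calls 18 of 28 lower (9 of each class), beside 27.9%. In the authors' deposited table for BT2 in kidney, RT1-T24-1 (adjusted p = 0.0306) and RT1-T24-4 (adjusted p = 0.0315) are called lower, beside 11.4%, and in that for empagliflozin 0 RT1 genes are, beside 4.12%. For the combination in heart the authors' deposited table calls RT1-DMb higher (adjusted p = 0.00465) and RT1-S3 lower (adjusted p = 0.0159), beside 8.05%. Their other heart tables used here call 0 RT1 genes. The shares beside these are 6.06% for obese against lean, 0.489% for BT2 and 0.837% for empagliflozin.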

How the data were processed

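RNA was made from 50 mg of frozen kidney or heart, and poly-A libraries were stranded, per the labels' protocols. Among the tools listed in the submitters' processing notes are STAR 2.7.3a, Salmon 1.5.2 and DESeq2 1.34.0, with the build mRatBN7.2, made from another strain (BN). The authors deposited expected counts per gene and run, of which 6.85% are not whole, and a scaled-count signal (size-factor normalized counts) used here for symbols and to check runs. The authors also deposited log2 fold changes and adjusted p-values. Counts came from 163 columns, and another 82 columns belong to no sample here and were left out. The runs of the 43 libraries with a repeat run were summed, as in the authors' scaled counts (56 of 56 checked pairs proportional within 2%), and rounded.

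CPM used TMM scaling within an organ. Tests used edgeR 4.0.16 in R 4.3.3 (quasi-likelihood F test, low-count filter by group, plate as covariate, Benjamini-Hochberg over all genes, called at 0.05), first tested on simulated data. DESeq2 1.42.0, other scaling and filters, each plate alone, the replicate number as a block, the original run alone and leaving out libraries were alternatives. Named were RT1 genes with a mean of 5 CPM in a group or called in a comparison, and of each list up to 4 called genes with the smallest adjusted p plus B2m, Nlrc5, Cd74 and Ciita. The members and lists were chosen with earlier results of these data known. The series text gives 10 rats per condition, so libraries of a group were taken as separate rats. The labels do not say that a replicate number marks 1 animal or litter, and the numbers were not taken as pairs. In no comparison did every pair of same-numbered libraries correlate over 0.1, a rule that does not exclude pairing. Transcript lengths, proteins and a genome were not used here.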

Additional observations from a re-analysis of the deposited data

Results flagged for a closer look

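Single libraries far from the rest of their group were looked for in 162 sets of values, and chance alone gives about 1 in 20. Empagliflozin kidney replicate 1 was far above its group in class II: the class II sum was 1741 CPM, with 947 CPM in the nearest library. There RT1-Da was 497 CPM (nearest 275 CPM), RT1-Db1 398 CPM (nearest 238 CPM), RT1-Ba 341.5 CPM (nearest 178 CPM) and RT1-Bb 312 CPM (nearest 165 CPM). RT1-DMa was 46.2 CPM (nearest 33.2 CPM), RT1-DOa 21.4 CPM (nearest 10.1 CPM) and RT1-DOb 15.2 CPM (nearest 8.90 CPM). The class I genes RT1-N3, at 31.2 CPM (nearest 18.2 CPM), and RT1-S3, at 149.8 CPM (nearest 102 CPM), stood apart in the same kidney.

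In heart, obese vehicle replicate 10 of study A had a class II sum of 148 CPM (nearest 108 CPM), RT1-Bb at 22.6 CPM (nearest 16.2 CPM) and RT1-M3-1 at 12.3 CPM (nearest 8.70 CPM), and it is a library held in doubt. Study B vehicle heart replicate 6 had RT1-Da at 27.0 CPM (nearest 18.5 CPM) and RT1-S3 at 60.7 CPM (nearest 45.0 CPM). BT2 heart replicate 8 had RT1-DMb at 32.4 CPM (nearest 25.7 CPM), and BT2 heart replicate 6 had RT1-S3 at 58.9 CPM (nearest 42.6 CPM). In kidney, lean replicate 9 had RT1-Ba at 112 CPM (nearest 94.5 CPM), and combination replicate 4 had RT1-DMa at 19.1 CPM (nearest 15.2 CPM).

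The effect of obesity differed between kidney and heart (kidney minus heart, log2, edgeR) for RT1-DOa (1.22), RT1-CE11 (0.70), RT1-CE15 (0.63), RT1-M3-1 (0.63) and RT1-N3 (0.58). The effect of the combination differed for RT1-Ba (-1.65), RT1-Db1 (-1.49), RT1-Da (-1.45), RT1-DOb (-1.44), RT1-Bb (-1.41), RT1-DMa (-1.15), RT1-DOa (-1.14), RT1-DMb (-0.94), RT1-N3 (-0.90), RT1-M3-1 (-0.50) and RT1-CE16 (-0.38). Of the genes differing for the combination, RT1-DOb and RT1-DOa did not pass the filter on low counts for that comparison in heart. They entered through the kidney libraries. For obesity, too, RT1-DOa was sparse in heart, where its highest group mean was 0.934 CPM. In kidney the BT2 effect with empagliflozin minus that of BT2 alone was -1.36 for RT1-DOa, -1.25 for RT1-DOb, -1.14 for RT1-Bb, -1.14 for RT1-Db1, -1.08 for RT1-Ba, -1.06 for RT1-Da, -1.03 for RT1-DMa, -0.78 for RT1-DMb and -0.56 for RT1-M3-1.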

How the results depend on the processing

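Of 156 counts of RT1 genes called under alternative settings, 135 lay within 1.5 times the reported count. Of 964 alternative values of called genes, 847 were still past the threshold, 117 were not and 0 turned sign. Obese against lean kidney gave 14 RT1 genes without the plate term, 7 of them of class I, beside the 21 and 13 reported. With 5 libraries a group, obese against lean kidney gave 12 RT1 genes on plate 1 alone and 6 on plate 2 alone, and the combination against vehicle in kidney gave 11 on plate 1 alone. In kidney, BT2 gave 2 with DESeq2 and 1 with the original run alone. In heart, plate 1 alone gave 1 for obese against lean (RT1-Da), 4 for empagliflozin and 1 for the combination against empagliflozin (RT1-S3). Shares of all genes called under the alternative settings are not given here. The 2 genes called with the combination in heart were 1 without the filter on low counts and 1 with the original run alone, and 0 without the plate term, with the replicate block, on plate 1 alone, on plate 2 alone and without the libraries in doubt. The kidney minus heart difference in the effect of obesity (5 genes) was called for 3 without the filter, 0 without the plate term and 3 with the replicate block. That of the combination (11 genes) was called for 6 without the plate term, 7 with the replicate block and 6 without the libraries in doubt. With the replicate block 20 RT1 genes were called between obese and lean kidneys and 19 with the combination in kidney. Replicate numbers are shared across groups, and the correlation of same-numbered libraries was over 0.1 in 0 to 6 of the 10 pairs of a comparison, most in heart for empagliflozin against vehicle (median 0.122), and in every pair of none. The numbers were not taken as pairs, although these correlations do not exclude pairing. The causes of these shifts were not tested, and where a plate stands alone the fewer libraries and the plate cannot be told apart. The repeat run term, leaving out empagliflozin kidney replicate 1, and leaving out 3 kidney libraries absent from the authors' tables were chosen after seeing the data. In the fits reported here 7 class I genes passed the filter on low counts in no comparison within an organ and were not tested there. Without this filter lean kidney against lean heart gave 21 RT1 genes, 15 of them of class I, beside the 18 and 12 reported.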

Other observations

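Vehicle-treated obese rats were sampled in both studies, which were not compared with each other. Mean kidney RT1-Da was 203 CPM in study B vehicle rats and 217 CPM in study A obese vehicle rats. RT1-CE16 averaged 508 CPM in study B and 351 CPM in study A vehicle kidneys, and RT1-CE2 averaged 37.4 CPM in study B and 20.8 CPM in study A vehicle kidneys.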
